A study of Mus musculus with 34 samples.

Results

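The homeostatic astrocyte genes are 10 genes that mark resting astrocytes: the glutamate transporters Slc1a2 and Slc1a3, the glutamine synthetase Glul, the water channel Aqp4, the connexins Gja1 and Gjb6, the metabolic enzymes Aldoc and Aldh1l1, the growth factor receptor Fgfr3 and the secreted opsonin Mfge8. They were chosen by gene name, with earlier results of these data known. All 10 were found among the 55385 genes listed for mouse cortex, and all 10 were among the 17632 genes with enough counts to be tested. The samples were poly-A RNA libraries of cortex from 34 mice, 16 females and 18 males, all 6 months old. The mice were 5xFAD-Dp16 given Tofa (4) or Sham (3), 5xFAD given Tofa (5) or Sham (4), Dp16 given Tofa (5) or Sham (3), and wild-type C57BL/6J (WT) given Tofa (5) or Sham (5). Tofa was tofacitinib, an inhibitor of Janus kinases, at 15 mg/kg by gavage each day for a month, and Sham was gavage with its vehicle, 0.5% methylcellulose. Dp16 mice carry a duplication of a stretch of mouse chromosome 16 that matches much of human chromosome 21, so each of its genes is present in an extra copy. 5xFAD mice carry human amyloid precursor protein and presenilin transgenes with familial Alzheimer's disease mutations, and the Thy1 promoter drives these mainly in neurons. 5xFAD-Dp16 mice carry both lesions. No cells were sorted, so in this tissue RNA fewer astrocytes and less RNA per astrocyte cannot be told apart.

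Astrocytes take up the glutamate that neurons release through EAAT2 and EAAT1, the proteins made from Slc1a2 and Slc1a3, and glutamine synthetase turns it into glutamine that returns to neurons. Aquaporin 4 lies in the endfeet that wrap blood vessels, and connexin 43 (Gja1) and connexin 30 (Gjb6) couple astrocytes into a network. Mfge8 binds phosphatidylserine on dying cells and debris and links them to integrins on phagocytes, and Fgfr3 receives fibroblast growth factors. Loss of such genes is one of the usual readings of an astrocyte that leaves its resting state, while a rise of Gfap marks a reactive one.

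Each library held between 16029841 and 21388650 counted reads. Both lesions could be read from the counts: the median ratio of 105 genes of the duplicated segment to WT Sham was 1.38 to 1.52 in the 15 Dp16 carriers, against 0.908 to 1.05 in the 19 non-carriers, and Thy1, whose regulatory sequence drives the transgenes, was at 1427 to 2572 CPM (counts scaled by library size) in 5xFAD carriers, against 824 to 952 CPM in the other mice. No homeostatic gene lies in the segment. Markers of neurons, oligodendrocytes, microglia and vessels were present in every library. One library, 5xFAD Tofa 2, stood apart, with the lowest summed neuron markers (3676 RPKM, reads per kilobase of gene scaled to the library total, against a median of 5786 over all mice) and the highest summed oligodendrocyte markers (2921 RPKM, against a median of 1451 RPKM) and choroid plexus markers (1362 RPKM, against a median of 13.0 RPKM). The same library had the highest Aqp4 (234 CPM) and Gjb6 (72.2 CPM) of all 34 and the lowest Slc1a2 (2235 CPM) and Slc1a3 (604 CPM).

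Per kilobase of gene, the homeostatic genes spanned a wide range of levels. Glul, glutamine synthetase, was the highest at 698 ± 61.8 RPKM (SD, n = 34 mice). Aldoc, the brain form of the glycolytic enzyme aldolase, followed at 475 ± 38.5 RPKM, then Slc1a2 at 342 ± 53.4 RPKM and Slc1a3 at 183 ± 15.4 RPKM. Mfge8 was at 90.8 ± 15.6 RPKM and Gja1 at 73.7 ± 9.85 RPKM. The lowest were Gjb6 at 25.3 ± 4.05 RPKM, Fgfr3 at 25.2 ± 3.94 RPKM, Aqp4 at 21.8 ± 4.46 RPKM and Aldh1l1, a folate enzyme widely used to label astrocytes, at 18.1 ± 2.38 RPKM. The ranges over mice of Gjb6, Fgfr3, Aqp4 and Aldh1l1 overlapped each other, as did those of Mfge8 and Gja1. Summed over the 10 genes, the level was 1688 to 2316 RPKM, and the median was 1949 RPKM in Dp16 carriers against 1992 RPKM in non-carriers. Within a group the spread between mice was moderate, with a median coefficient of variation of 7.18% for Slc1a3 and 7.31% for Aldoc and of 16.4% for Gjb6.

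**Figure D1:**
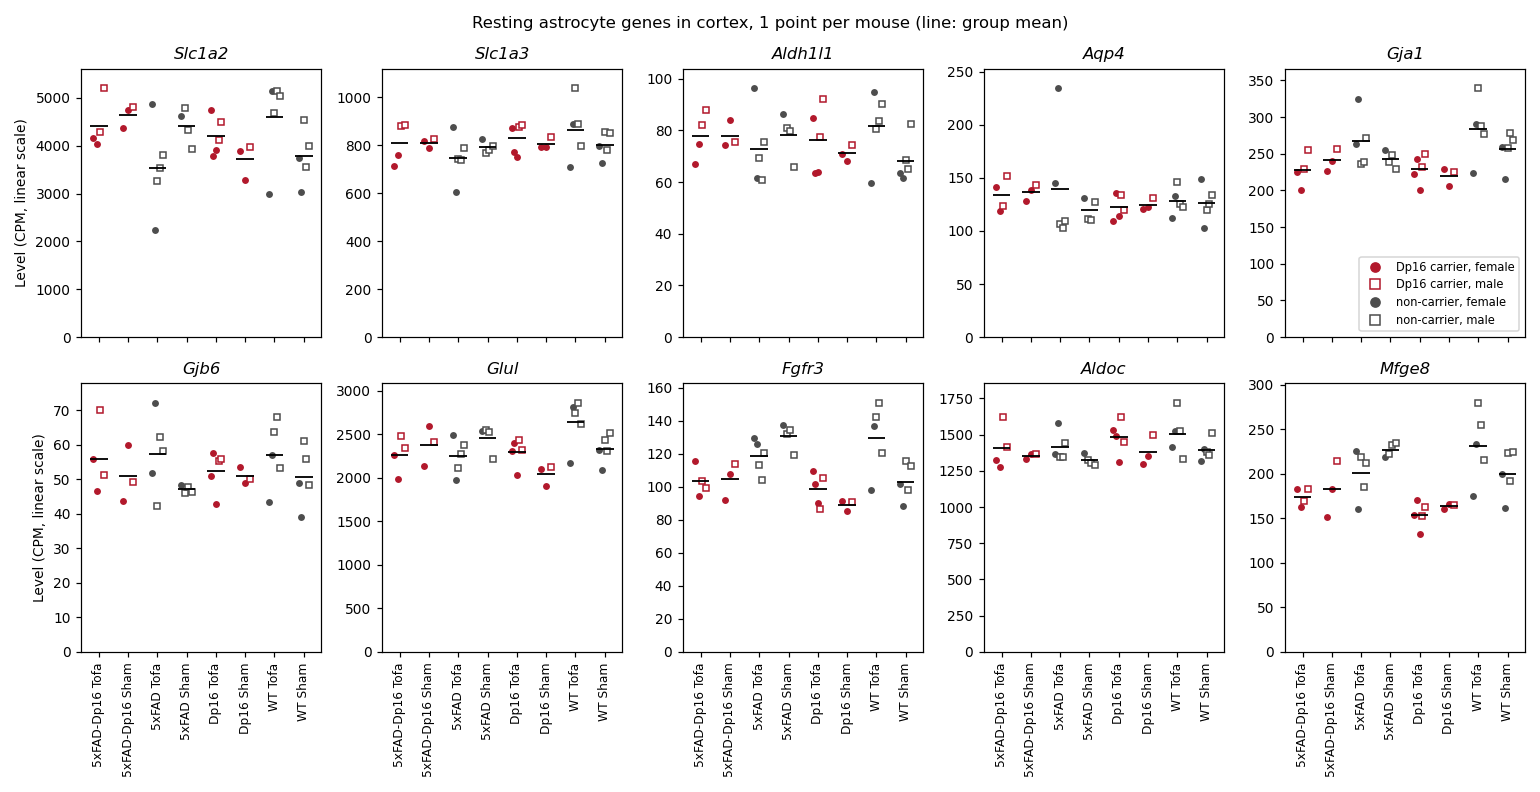
Level of each of the 10 genes in CPM (linear axis from 0) in each mouse, by group; red marks Dp16 carriers and grey non-carriers, filled circles females and open squares males, and a line the group mean. For Mfge8 and Fgfr3 the red points sit low, with group means of 154 to 183 CPM and 89.0 to 104.5 CPM, against 200.2 to 231.5 CPM and 103 to 131 CPM in the grey groups, while 5xFAD Tofa 2 stands high for Aqp4 at 234 CPM and low for Slc1a2 at 2235 CPM.

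The first comparison asked what the extra chromosome segment did to these genes, as the mean over both treatments and both 5xFAD states. Mfge8 and Fgfr3 fell in Dp16 carriers, and none of the 10 rose. A call means an edgeR quasi-likelihood p that stays under 0.05 after Benjamini-Hochberg adjustment over the 17632 genes tested. The background was 2.14% of these genes (378), with 0.975% lower (172) and 1.17% higher (206). The median log2 change of the 10 genes was 0.00, the same to 2 decimals as that of all genes tested, so the lower levels of Mfge8 and Fgfr3 stood beside 8 genes that were not called.

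Mfge8, on chromosome 7 (79133768 to 79149060, minus strand, GRCm38), was measured with 2249 to 5029 reads per library. Its level was 154, 170.0, 132, 153 and 162 CPM in the 5 Dp16 Tofa mice, against 175, 233, 279, 255 and 215 CPM in WT Tofa mice. It was 161, 166 and 165 CPM in Dp16 Sham mice, against 199, 162, 223.5, 192 and 225 CPM in WT Sham mice. Every Dp16 Tofa mouse was below every WT Tofa mouse, which held in that direction for 0.573% of all genes tested, while in Sham 1 WT mouse lay among the Dp16 mice. On the 5xFAD background Mfge8 was 183, 162.5, 169 and 183 CPM in 5xFAD-Dp16 Tofa mice, against 226, 160.5, 219, 185 and 212 CPM in 5xFAD Tofa mice. It was 151, 183 and 214 CPM in 5xFAD-Dp16 Sham mice, against 218, 222, 232 and 234 CPM in 5xFAD Sham mice. These Sham groups did not overlap, where the background in that direction was 4.63% of genes, and in Tofa the only 5xFAD mouse below the median of the 5xFAD-Dp16 mice was 5xFAD Tofa 2. The ratio of group means was 0.666 and 0.819 without 5xFAD (Tofa and Sham) and 0.870 and 0.806 with it.

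Over all mice Mfge8 averaged 167 ± 18.8 CPM in 15 Dp16 carriers and 214 ± 30.0 CPM in 19 non-carriers (SD). The fitted log2 change was -0.31 (SE 0.06, 95% interval -0.43 to -0.19, edgeR adjusted p = 0.0014). All 15 carriers lay below the median of the non-carriers, 219 CPM, and 4 of them below the lowest non-carrier. Among the 8587 genes with a log2 change below 0, Mfge8 ranked 15th by p. Females made up 9 of the 15 carriers and 7 of the 19 non-carriers, and the fit holds a sex term. Mfge8 averaged 162.5 ± 16.1 CPM in female carriers and 196 ± 30.6 CPM in female non-carriers (SD). In males it averaged 174 ± 21.7 CPM in carriers and 224.5 ± 25.3 CPM in non-carriers. These means pool unequal mixes of treatment and 5xFAD state, and the difference was not tested within a sex. Taken one treatment at a time, Mfge8 was called in Tofa mice (Dp16 over WT, log2 change -0.55, SE 0.10, adjusted p = 0.0050, with 0.250% of genes called and 0.0340% lower), and was at -0.24 (SE 0.12, adjusted p = 0.68) in Sham mice, where 0.210% of genes were called. The difference between these contrasts, Dp16 over WT in Tofa less that in Sham, was -0.31 on the log2 scale (SE 0.15, 95% interval -0.62 to 0.00, edgeR adjusted p = 0.97) and was not called. The same difference between 5xFAD-Dp16 and 5xFAD mice was 0.07 (95% interval -0.26 to 0.40), and the Dp16 by Tofa interaction averaged over both was -0.12 (95% interval -0.35 to 0.11). With only the Dp16 Tofa and WT Tofa mice in the fit, Mfge8 was no longer called there (adjusted p = 0.26).

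Fgfr3, on chromosome 5 (33721674 to 33737068, plus strand), was also lower in the carriers of each pair of groups. It was 109, 101, 90.1, 86.6 and 105 CPM in Dp16 Tofa mice, against 98.2, 137, 142, 151 and 121 CPM in WT Tofa mice. It was 91.2, 85.25 and 90.7 CPM in Dp16 Sham mice, against 102, 88.0, 115, 97.7 and 112 CPM in WT Sham mice. In both pairs a single low WT mouse, WT Tofa 1 and WT Sham 2, made the groups overlap. On the 5xFAD background it was 116, 94.6, 103 and 98.9 CPM in 5xFAD-Dp16 Tofa mice, against 129.6, 126, 113, 104 and 120.4 CPM in 5xFAD Tofa mice, and these overlapped. It was 92.1, 107.5 and 114 CPM in 5xFAD-Dp16 Sham mice, against 137, 132, 134 and 119 CPM in 5xFAD Sham mice. These Sham groups did not overlap, as was so in that direction for 4.63% of all genes tested. Over all mice Fgfr3 averaged 99.1 ± 9.88 CPM in carriers and 120.0 ± 16.9 CPM in non-carriers (SD, n = 15 and 19). The log2 change was -0.28 (SE 0.06, 95% interval -0.39 to -0.16, edgeR adjusted p = 0.0042), and all 15 carriers lay below the non-carrier median of 120.4 CPM. Within a single treatment it was not called: Dp16 over WT was -0.39 (SE 0.10, adjusted p = 0.11) in Tofa mice and -0.20 (SE 0.11, adjusted p = 0.77) in Sham mice. A gene annotated on the opposite strand, G630022F23Rik, overlaps Fgfr3, and whether the counting used strand is not given in the sources used here.

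**Figure D2:**
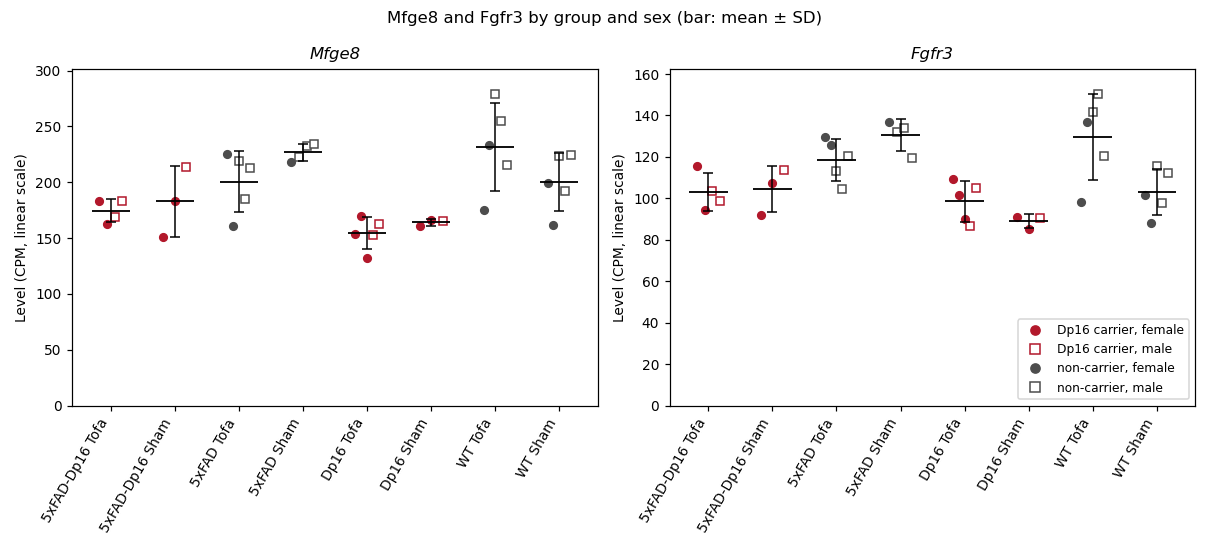
Mfge8 (left) and Fgfr3 (right) in CPM (linear axis from 0) for each mouse, with the mean and SD of each group as bars, Dp16 carriers in red and non-carriers in grey. In each of the 4 pairs of carriers and non-carriers the carriers' mean is the lower, with ratios of 0.666 to 0.870 for Mfge8 and 0.760 to 0.870 for Fgfr3.

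Mfge8 and Fgfr3 moved together across the 34 mice (Pearson r 0.82 and Spearman rho 0.78, the highest r of the 45 pairs of homeostatic genes). Group means were not removed, so these values include the lower level of both genes in Dp16 carriers. The DNA just upstream of both genes is shown, from the RefSeq promoter table of build GRCm38.p6. It is read 5′ to 3′ on the gene's strand up to the base before the gene. Capitals mark GC boxes (GGGCGG on either strand) and, in Fgfr3, a CCAAT box (CCAAT on either strand).
Mfge8, chr7:79149061-79149310, minus strand: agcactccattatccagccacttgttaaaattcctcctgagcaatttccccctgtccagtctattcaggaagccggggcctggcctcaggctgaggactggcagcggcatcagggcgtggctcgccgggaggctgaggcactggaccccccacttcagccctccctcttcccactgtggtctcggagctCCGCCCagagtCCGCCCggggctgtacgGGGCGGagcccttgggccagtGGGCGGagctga
Fgfr3, chr5:33721474-33721673, plus strand: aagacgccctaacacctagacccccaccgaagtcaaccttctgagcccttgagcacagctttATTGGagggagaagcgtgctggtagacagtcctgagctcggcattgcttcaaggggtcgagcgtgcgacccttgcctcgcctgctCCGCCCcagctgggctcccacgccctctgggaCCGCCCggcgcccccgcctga
The Mfge8 stretch held 4 GC boxes, within 61 bases of the gene start, and the Fgfr3 stretch held 2, within 53 bases. A GC box was found in the 250 bases upstream of 32.74% of 32851 promoters of the table and a CCAAT box in 33.85%. Of 11 promoter entries of the homeostatic genes 7 held a GC box, also those of Aldh1l1, Aldoc, Glul and Slc1a3. A CCAAT box was in 4 of the 11, also in those of Aldh1l1, Glul and Slc1a3. Neither box was therefore particular to Mfge8 and Fgfr3. The STAT motif TTCNNNGAA, the site of the transcription factors below the Janus kinases, was in neither stretch, and was found upstream of 7.02% of all promoters and, among the homeostatic genes, of Aldoc and Slc1a3. The full NFI motif, the site of a factor family active in astrocytes, was found upstream of none of them and of 0.03653% of promoters. Aqp4 had no entry in the table. The matches describe letters in these windows and do not show binding.

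Gja1, connexin 43, was not called but lay on the same side. It ranged from 200.3 to 257 CPM with a median of 229 CPM in Dp16 carriers, against 215 to 339 CPM with a median of 259 CPM in non-carriers, and all 15 carriers were below that median. Its log2 change was -0.17 (SE 0.05, edgeR adjusted p = 0.093). Its partner Gjb6, connexin 30, was at 0.02 (SE 0.07) on the same scale. Glul was at -0.09 (SE 0.04, adjusted p = 0.40), with medians of 2310 CPM in carriers and 2436 CPM in non-carriers. The other 5 genes were near 0: log2 changes were 0.09 for Slc1a2 (SE 0.08), 0.05 for Slc1a3 (SE 0.05), 0.03 for Aldh1l1 (SE 0.07), 0.01 for Aldoc (SE 0.04) and -0.01 for Aqp4 (SE 0.08). Their 95% intervals lay between -0.17 and 0.25. Aldoc shows how close the groups were, at 1417 ± 113 CPM in carriers and 1413 ± 111 CPM in non-carriers (SD, n = 15 and 19).

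**Figure D3:**
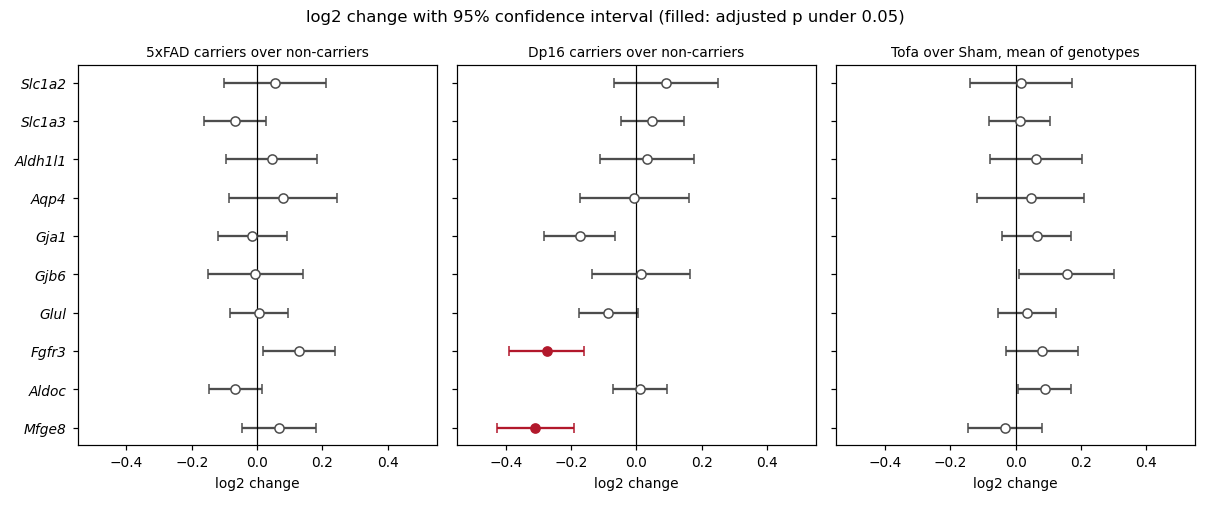
Fitted log2 change of each of the 10 genes with its 95% confidence interval for 5xFAD carriers (left), Dp16 carriers (middle) and Tofa (right), each over its counterpart; filled red points passed the adjusted threshold. In the middle panel Mfge8 at -0.31 and Fgfr3 at -0.28 are filled, and no point is filled in the outer panels.

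Setting a gene against 7 others of the list within the same library removes what all 10 share there. The log2 ratio of Mfge8 to the mean of the 7 others, with the WT Sham mean as 0, was -0.32 ± 0.14 in carriers and 0.04 ± 0.14 in non-carriers (SD, n = 15 and 19). For Fgfr3 it was -0.12 ± 0.13 in carriers and 0.16 ± 0.13 in non-carriers, and for Gja1 it was -0.22 ± 0.07 in carriers and -0.02 ± 0.12 in non-carriers. In the 8 group means the 4 carrier groups lay below all 4 non-carrier groups for each of the 3 genes. The 3 genes and the 7 others were split after their values were seen, so this is a description.

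**Figure D4:**
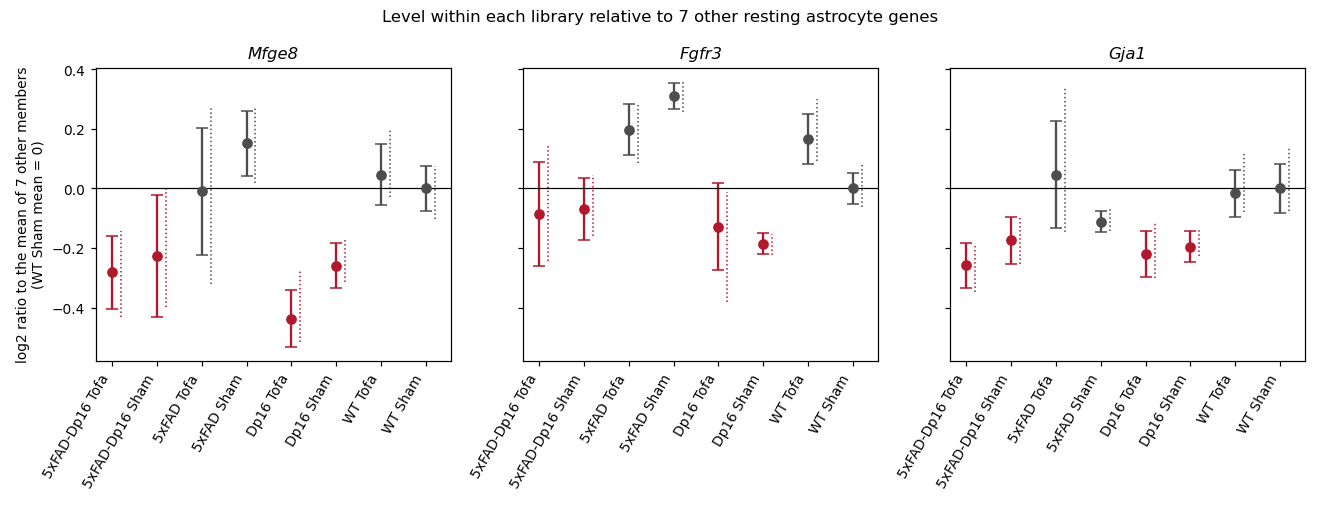
Log2 ratio of Mfge8, Fgfr3 and Gja1 to the mean of 7 other homeostatic genes of the same library, shifted so that the WT Sham mean is 0; points are group means, solid bars the SD and dotted lines the range over mice, red for Dp16 carriers. Mfge8 is lowest in Dp16 Tofa at -0.44 and Fgfr3 highest in 5xFAD Sham at 0.31.

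Other astrocyte genes also moved in both directions in Dp16 carriers. Of 25 further resting astrocyte genes tested, 3 fell and 1 rose, with a median log2 change of 0.02. Over all genes tested 2.14% were called in this comparison. The gene lists were chosen with earlier results of these data known. Cbs, which makes cystathionine from homocysteine, fell most (17.3 ± 3.10 CPM in carriers and 27.3 ± 5.32 CPM in non-carriers, log2 -0.57, SE 0.08, edgeR adjusted p = 1.4e-05). The secreted chaperone Clu fell (912.5 ± 69.8 CPM in carriers and 1086 ± 105 CPM in non-carriers, log2 -0.23, SE 0.05, adjusted p = 0.0030), as did the amino acid transporter Slc7a10 (log2 -0.25, SE 0.07, adjusted p = 0.038). Lcat, which esterifies cholesterol on lipoproteins, rose (30.5 ± 2.08 CPM in carriers and 23.1 ± 3.83 CPM in non-carriers, log2 0.42, SE 0.07, adjusted p = 0.00011). Among 11 genes of endfeet and potassium buffering Hepacam, a cell adhesion protein that partners with connexin 43, fell (140.3 ± 10.7 CPM in carriers and 161 ± 16.6 CPM in non-carriers, log2 -0.19, SE 0.05, adjusted p = 0.023). Among 14 other genes of FGF receptor signalling Fgfr2 fell (54.7 ± 7.62 CPM in carriers and 67.8 ± 9.73 CPM in non-carriers, log2 -0.32, SE 0.07, adjusted p = 0.011). None of 17 genes of the glutamate and glutamine cycle, 11 other gap junction genes, 11 engulfment genes, 15 glycolysis genes or 20 reactive astrocyte genes was called. Their median log2 changes were -0.09, -0.03, -0.06, -0.03 and 0.06, and Gfap, the filament protein of reactive astrocytes, was at 0.06 (SE 0.15).

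Some markers of other cells moved with the duplication as well. Of 10 oligodendrocyte markers 9 were below 0 (median log2 -0.19) and the myelin genes Cnp and Ermn fell (log2 -0.25, adjusted p = 0.040, and -0.39, adjusted p = 0.018), and their summed level was 1073 to 1761 RPKM in carriers against 1145 to 2921 RPKM in non-carriers. All 8 striatum markers were below 0 with a median of -0.59 and none called, and their sum was 154 to 815 RPKM (median 350.5) in carriers against 202.5 to 1095 RPKM (median 628) in non-carriers. All 8 mural cell markers were below 0 with a median of -0.12 and none called, with sums of 101 to 122.5 RPKM in carriers against 105 to 157 RPKM in non-carriers. Of 10 microglia markers the purine receptor P2ry12 fell (log2 -0.21, adjusted p = 0.040), and of 8 endothelial markers Vwf, von Willebrand factor, rose (log2 0.57, adjusted p = 0.0039). The sums of these lists differed little, with microglia medians of 370 RPKM in carriers and 376 RPKM in non-carriers. Endothelial medians were 100.4 RPKM in carriers and 103.5 RPKM in non-carriers, and neuron medians were 5627 RPKM and 5911 RPKM. None of these markers was at 0 in any library. Summed choroid plexus markers ranged over 1.76 to 804 RPKM in carriers against 2.76 to 1362 RPKM in non-carriers. Their part in the levels of Mfge8 and Fgfr3 was not tested.

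The second comparison asked what the 5xFAD transgenes did. None of the 10 genes was called in 5xFAD carriers over non-carriers, where 0.420% of genes were called (74, with 0.227% lower), and their median log2 change was 0.03. Fgfr3 was the farthest from 0, at 115 ± 14.2 CPM in 16 carriers and 107 ± 19.7 CPM in 18 non-carriers (SD; log2 0.13, SE 0.05, edgeR adjusted p = 0.19). Mfge8 was at 0.07 (SE 0.06), Slc1a2 at 0.05 (SE 0.08), Aqp4 at 0.08 (SE 0.08), and Slc1a3 and Aldoc both at -0.07 (SE 0.05 and 0.04). None of the 25 further resting genes or of the 20 reactive genes was called. Gfap was at 271 ± 110 CPM in 5xFAD carriers and 190.1 ± 55.9 CPM in non-carriers, with a log2 change of 0.49 (SE 0.15, adjusted p = 0.11), and 5xFAD Tofa 2 was the highest at 632 CPM.

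In Sham mice alone, Fgfr3 was 119 to 137 CPM in the 4 5xFAD mice and 88.0 to 115 CPM in the 5 WT mice, which did not overlap, as was so for 10.8% of all genes in this pair. The log2 change was 0.34 (SE 0.10, edgeR adjusted p = 0.064), and 3 genes in all were called, 0.0170% of those tested. Fgfr3 was called when WT Sham 3, WT Tofa 1 or 5xFAD Tofa 1 was left out. Without WT Sham 3 the number called over all genes rose steeply as well, as given at the end of the report. For the other left-out mice that number is not given here. In Tofa mice the values lay the other way for several members. Slc1a2 was 4881, 2235, 3272, 3528 and 3806 CPM in 5xFAD Tofa mice, against 2999, 5153, 4681, 5143 and 5042 CPM in WT Tofa mice. All WT Tofa mice but WT Tofa 1 were at 4681 CPM or more, and of the 5xFAD Tofa mice only 5xFAD Tofa 1 passed that level. The log2 change was -0.37 (SE 0.14, adjusted p = 0.74), that of Glul was -0.23 (SE 0.08, adjusted p = 0.68), and none of the 10 was called (0.0170% of all genes). In 5xFAD-Dp16 over WT, none of the 10 was called in Tofa mice (background 0.306%), where Mfge8 was at -0.39 (SE 0.11, adjusted p = 0.15), Fgfr3 at -0.32 (SE 0.10) and Gja1 at -0.31 (SE 0.10). Without WT Tofa 1 both Mfge8 and Fgfr3 were called there, and the share of all genes called in that fit is not given here. None was called in Sham mice (background 0.363%, and 0.0510% lower), where Mfge8 was at -0.10 (SE 0.12) and Slc1a2 at 0.33 (SE 0.16). All these contrasts share their WT mice.

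The third comparison asked whether Tofa moved these genes. None was called in Tofa over Sham as the mean of the 4 genotypes, and neither was any gene of the 17632 (edgeR), of which 592 had a p under 0.05 before adjustment. DESeq2 called 1 gene and limma-voom 0 in this mean, and neither called any of the 10. Gjb6 averaged 55.8 ± 8.78 CPM in 19 Tofa mice and 49.9 ± 5.83 CPM in 15 Sham mice (SD), a log2 change of 0.16 (SE 0.07, adjusted p = 0.93). Aldoc averaged 1454 ± 124 CPM in Tofa mice and 1365 ± 65.1 CPM in Sham mice, a log2 change of 0.09 (SE 0.04, adjusted p = 0.93). Mfge8 was the one gene below 0, at -0.03 (SE 0.06). The 95% intervals of all 10 lay between -0.15 and 0.30, so larger mean changes than these were outside them. Within WT mice all 10 were above 0 with a median of 0.17, against a median of 0.01 over all genes, and none was called. The value farthest from 0 was that of Fgfr3, 98.2 to 151 CPM in WT Tofa mice against 88.0 to 115 CPM in WT Sham mice (log2 0.33, SE 0.10, adjusted p = 0.59). In 5xFAD mice the median was -0.08, with Slc1a2 at -0.30 (SE 0.15, adjusted p = 0.34) and Gjb6 at 0.30 (SE 0.14, adjusted p = 0.32). Slc1a2 was called there without 5xFAD Tofa 1, and 352 genes were then called in place of 0.

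The design also allows the differences between these effects to be tested. In the 5xFAD by Tofa interaction, which sets Tofa over Sham in 5xFAD carriers against Tofa over Sham in non-carriers, Slc1a2 was at -0.43 (SE 0.15), Fgfr3 at -0.32 (SE 0.11) and Glul at -0.27 (SE 0.09) on the log2 scale. Their p values before adjustment were 0.0086, 0.0065 and 0.0035 in edgeR and all 3 had an adjusted p of 0.33. No gene was called, while 2548 had a p under 0.05 before adjustment. Of the 10 genes 8 were below 0 with a median of -0.15, and so were 19 of the 25 further resting genes with a median of -0.17, against a median of 0.00 over all genes. All 5 choroid plexus markers were above 0 in this interaction with a median of 2.93, and 9 of 10 neuron markers were below 0 with a median of -0.19; their part in these values was not tested. For the 5xFAD by Dp16 interaction all 10 were above 0, between 0.03 and 0.27, and none was called (background 0.00567%). For the Dp16 by Tofa interaction, averaged over both 5xFAD states, the range was -0.17 to 0.05 and none was called. Females against males gave no call either (background 0.0624%, and 0.0340% lower), with Mfge8 at -0.14 (SE 0.06, adjusted p = 0.77) and Slc1a3 at -0.11 (SE 0.05, adjusted p = 0.84).

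Across mice the homeostatic genes varied together only in part. Of their 45 pairs 43 had a Pearson r above 0, with a median of 0.38 and a range of -0.14 to 0.82. These are descriptions across 34 libraries that share their depth, scaling and dissection. Group means were not removed, so differences between groups are part of each r. Glul followed the mean of the 9 others most closely (r 0.83, rho 0.81, r 0.82 without the 2 mice farthest from the median). Aqp4 did so least (r 0.22, rho 0.35), and its lowest pairs were with Slc1a2 (r -0.14, rho 0.30) and Slc1a3 (r -0.09, rho 0.36), where 5xFAD Tofa 2 holds the extreme values. Of 14465 other genes that averaged 1 CPM or more, those most like the mean of the 10 across mice were Pcdhgc3 (r 0.85), Ahcyl2 (r 0.85), Acsbg1 (r 0.85), Tbkbp1, Mtss2, Tns3, Hepacam, Panx2, Eef2 and Sparcl1 (r 0.82). The 25 further resting astrocyte genes had a median r of 0.50 with that mean, and all 14465 genes had one of 0.00.

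Libraries also differed in how far long or short genes were favoured, and several homeostatic genes moved with this. For each library the Spearman correlation across genes between gene length and the deviation of log2 CPM from the mean of all mice was between -0.43 and 0.35. Over the 34 libraries Slc1a2, the longest of the 10 at 12092 bases, followed this trend most (r 0.71, rho 0.76). Aldh1l1 (r 0.56), Fgfr3 (r 0.54), Glul (r 0.46) and Mfge8 (r 0.46) did so less. Mfge8 is a short gene of 2126 bases, near the shortest of the 10, Gjb6, at 2105 bases (r -0.06). Its r therefore did not go with a long length, and what lay behind it was not tested. Aldoc ran against it (r -0.41, rho -0.38), and Aqp4 did not follow it (r 0.00, rho 0.07). All 4 5xFAD Sham libraries were above 0, against 1 of 5 WT Sham libraries, and 1 of 5 5xFAD Tofa libraries, against 3 of 5 WT Tofa libraries, so the trend coincided with the 5xFAD contrasts within a treatment and with the 5xFAD by Tofa interaction. With the trend removed, 5xFAD over WT in Sham was 0.01 for Slc1a2, against 0.21 with it, and 0.25 for Fgfr3 (edgeR adjusted p = 0.11), against 0.34. In Tofa mice it was -0.29 for Slc1a2, against -0.37, and -0.26 for Glul, against -0.23. The 5xFAD by Tofa interaction was -0.27 for Slc1a2, against -0.43, -0.26 for Fgfr3, against -0.32, and -0.27 for Glul under both. None of the 10 genes was called in these contrasts with the trend removed. Between all Dp16 carriers and non-carriers the medians of the trend were -0.04 and -0.05. In Tofa mice they were -0.06 in Dp16 and 0.24 in WT, so the trend coincided with Dp16 over WT there. It also coincided with Tofa over Sham in WT mice (medians 0.24 and -0.21) and in 5xFAD mice (-0.19 and 0.28). Values of these contrasts with the trend removed are not given here. With the trend removed from each library, the log2 change in Dp16 carriers was -0.37 for Mfge8, -0.29 for Fgfr3 and -0.20 for Gja1. All 3 were called in that fit. The share of all genes called in it is not given here, so these calls are not set against a background.

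**Figure D5:**
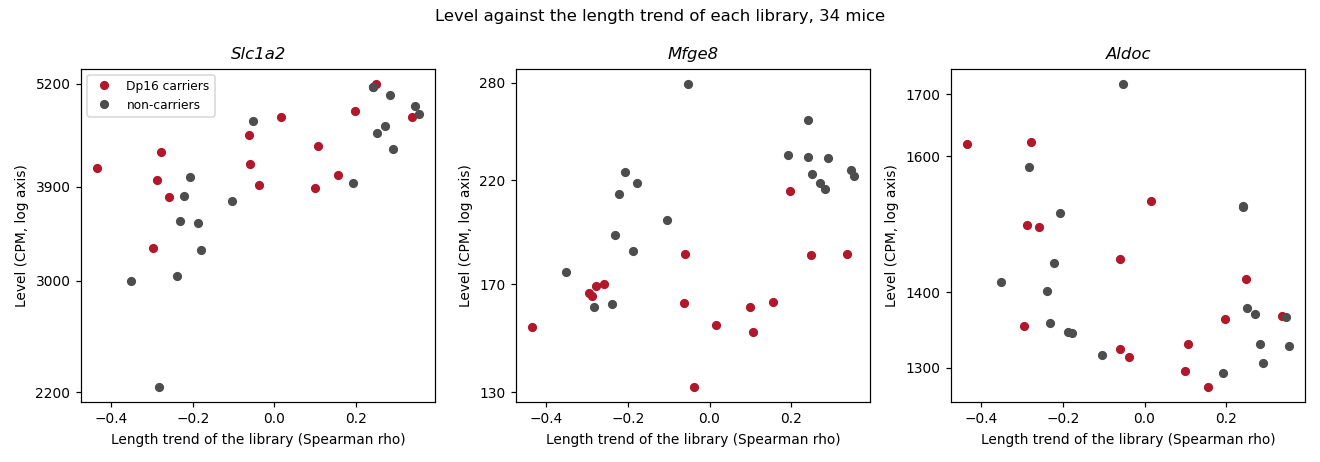
Level of Slc1a2, Mfge8 and Aldoc in CPM (log axis) against the length trend of each library (Spearman rho across genes, 0 for no trend), 1 point per mouse, red for Dp16 carriers and grey for non-carriers. Slc1a2 runs with the trend (r 0.71) and Aldoc against it (r -0.41), while for Mfge8 (r 0.46) the red points lie lower, at 132 to 214 CPM against 160.5 to 279 CPM.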

How the data were processed

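Whole-number counts per gene and mouse were deposited by the authors for 34 cortex samples. The submitters' processing notes name bcl2fastq, FastQC 0.11.5, HISAT2 2.1.0, SAMtools 1.5, HTSeq 0.6.1 and build GRCm38, with no roles or strand setting. The deposited RPKM values, scaled by the authors by gene length and column total, gave gene lengths and levels between genes. The series text gives 1 more mouse each for 5xFAD Tofa and 5xFAD-Dp16 Sham, not analysed here. Positions came from GENCODE. Counts were fitted with edgeR 4.0.16 in R 4.3.3: filterByExpr, TMM scaling, 8 group terms and sex, 17 two-sided contrasts, with Benjamini-Hochberg adjustment over all 17632 genes in each. CPM used TMM-scaled totals. The SE is the log2 change divided by the root of F. Each library is 1 mouse. Totals were 16029841 to 21388650 counts, and the 10 genes had 617 to 102909 counts per library. No 2 libraries of a group agreed within sampling noise. Alternatives were DESeq2 1.42.0, limma 3.58.1 voom with sample weights, other filters and scalings, no sex term, a replicate block, only the groups compared, removal of the length trend, and each library left out. WT Sham 2 and 5xFAD Tofa 2 were also left out together. Scripts were tested on simulated data. The 10 genes and the gene lists were chosen with earlier results of these data known. Named genes were the 10, called list members, Gfap and the 10 most alike.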

Additional observations from a re-analysis of the deposited data

Results flagged for a closer look

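In 2 of the 60 sets of a gene in a group of 4 or 5 mice, 1 mouse lay so far from the rest that Dixon's test passes its 95% critical value, where chance gives about 1 in 20. Slc1a2 was at 2999 CPM in WT Tofa 1, while the other 4 WT Tofa mice were at 4681 to 5153 CPM. WT Tofa 1 was also the lowest WT Tofa mouse for 8 of the other 9 genes, all but Aldoc. Glul was at 2209 CPM in 5xFAD Sham 4, while the other 3 5xFAD Sham mice were at 2530 to 2542 CPM.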

How the results depend on the processing

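The fall of Mfge8 and Fgfr3 in Dp16 carriers was called under each of the 10 alternative settings that hold this contrast. It was also called in each of the 34 fits with a library left out. The 10 settings include scaling without the segment genes, chosen after seeing the data, and leaving out WT Sham 2 and 5xFAD Tofa 2 together. Fits of only the groups compared do not hold this contrast. Over the left-out fits Mfge8 lay between -0.34 and -0.28 and Fgfr3 between -0.30 and -0.26. Gja1 was called beside them by DESeq2, without the sex term, with the length trend removed and without WT Sham 2 or WT Tofa 1. Other counts of genes called among the 10 moved. DESeq2 gave 1 in 5xFAD over WT Sham (Fgfr3), 2 in Dp16 over WT Tofa (Mfge8, Fgfr3) and 1 in 5xFAD-Dp16 over WT Tofa (Mfge8). limma-voom gave 4 in Dp16 carriers (Gja1, Glul, Fgfr3, Mfge8), 1 in 5xFAD over WT Sham, 2 in 5xFAD over WT Tofa (Slc1a2, Glul), 3 in Dp16 over WT Tofa, 4 in 5xFAD-Dp16 over WT Tofa, 1 in Tofa over Sham in 5xFAD (Slc1a2) and 3 in the 5xFAD by Tofa interaction (Slc1a2, Glul, Fgfr3). Without the low-count filter the counts were 1 in 5xFAD over WT Sham and 1 in that interaction. With only the groups compared they were 1 in 5xFAD over WT Sham and 0 in Dp16 over WT Tofa. Counts over all genes rose under some of these settings too, as given below. For most of these contrasts and settings the share of all genes called is not given here. These counts are therefore not set against a background. The cause was not tested. With 1 library left out, the counts ranged over 0 to 1 in 5xFAD over WT Sham, 1 to 2 in Dp16 over WT Tofa, 0 to 2 in 5xFAD-Dp16 over WT Tofa and 0 to 1 in Tofa over Sham in 5xFAD. Of 7590 values of single genes under these settings none reversed a called direction. Few had one to reverse, as the main fit called only Mfge8 and Fgfr3 in Dp16 carriers and Mfge8 in Dp16 over WT Tofa. Of the 7590 values 33 became called, 1 lost its call and 220 changed sign without a call.

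The replicate block left 2 genes called in Dp16 carriers (Mfge8 -0.30, Fgfr3 -0.27) and changed no count of the 10. Same-numbered mice of different groups did not deviate together: 98 such pairs had correlations of -0.39 to 0.25 with a median of 0.01, and 9 of 34 libraries were most like one of their own number. Counts over all genes moved more. In Dp16 carriers 378 became 1760 with limma-voom and 206 with the block. In 5xFAD carriers 74 became 1358 without the filter and 17 with the block, and ranged over 15 to 293 with a library left out. In 5xFAD over WT Sham 3 became 2806 with limma-voom and 1981 without WT Sham 3, and in the 5xFAD by Tofa interaction 0 became 3771 with limma-voom. Scaling without the segment genes, and the Dp16 by Tofa difference within each 5xFAD state, were chosen after seeing the data and changed no count of the 10.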
